A study of Mus musculus with 6 samples.

Results

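The genes described here set the activity of Cdk1, the kinase that drives cells into mitosis. They are the mitotic cyclins Ccna2, Ccnb1 and Ccnb2 with the related Ccnf, Cdk1 itself, the activating phosphatases Cdc25a, Cdc25b and Cdc25c, and the inhibitory kinases Wee1 and Pkmyt1. They were taken by symbol, from every probe set whose platform annotation gave that symbol alone. Of these 10 genes 9 were measured, by 16 probe sets, among 34945 probe sets with 1 symbol for 18193 genes. No probe set in the annotation used here carried the symbol Ccnb1 alone, so that cyclin was not analysed here. The set was chosen by its old minus young differences on these same arrays, Ccnb2 having been picked because it was higher while others were lower, so those differences are given for these genes as a description, with no p-value.

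The samples were total RNA of neural stem cells from C57BL/6JRj mice on Affymetrix arrays, 1 array per sample. The young group held 3 samples from mice of 6 weeks and the old group 3 samples from mice of 9 months. The labels name no transgene, deletion or treatment in either group, and they do not say whether the cells were cultured or pooled or whether replicates came from separate animals. The p-values below therefore rest on the spread between arrays of a group, and that spread may be technical.

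Cdk1 is active only when bound to a cyclin of the A or B type, and these cyclins are made in late S phase and G2 and destroyed during mitosis. Until then Wee1 and Pkmyt1 hold the kinase in check by phosphorylating it, and the Cdc25 phosphatases remove those phosphates and so start mitosis. Many genes of this machinery are transcribed together in G2 from promoters that carry CCAAT boxes, bound by NF-Y, and a cell cycle homology region, bound by the MuvB core of the DREAM and B-Myb complexes. In bulk RNA, fewer cells in G2 and mitosis and less of a transcript per cell cannot be told apart.

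Promoter sequence is shown for Ccnb2, Cdk1 and Ccnf, because their windows hold letters that match both kinds of G2 element. Ccnb2 differed from Cdk1 and Ccnf in its direction between the ages. The sequences are from RefSeq (GRCm38.p6) and cover the 250 bases before the annotated start, 5′ to 3′ on the strand of the gene. Capitals mark CCAAT or its reverse complement ATTGG, and TTTGAA, the letters of a cell cycle homology region, whose reverse complement TTCAAA was searched as well. The motifs do not overlap each other. Ccnb2 lies on the minus strand (chr9:70421555-70421804), as do Cdk1 (chr10:69352913-69353162) and Ccnf (chr17:24251410-24251659).
Ccnb2: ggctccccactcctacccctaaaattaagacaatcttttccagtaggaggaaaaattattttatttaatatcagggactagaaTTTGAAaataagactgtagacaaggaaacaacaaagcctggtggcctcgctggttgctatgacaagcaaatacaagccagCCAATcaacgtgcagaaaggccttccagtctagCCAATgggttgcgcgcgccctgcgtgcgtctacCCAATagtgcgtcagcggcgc
Cdk1: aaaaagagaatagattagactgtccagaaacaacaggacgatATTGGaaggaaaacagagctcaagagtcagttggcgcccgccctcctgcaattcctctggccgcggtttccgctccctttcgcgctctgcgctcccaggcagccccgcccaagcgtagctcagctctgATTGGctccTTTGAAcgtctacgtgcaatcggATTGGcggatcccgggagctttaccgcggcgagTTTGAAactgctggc
Ccnf: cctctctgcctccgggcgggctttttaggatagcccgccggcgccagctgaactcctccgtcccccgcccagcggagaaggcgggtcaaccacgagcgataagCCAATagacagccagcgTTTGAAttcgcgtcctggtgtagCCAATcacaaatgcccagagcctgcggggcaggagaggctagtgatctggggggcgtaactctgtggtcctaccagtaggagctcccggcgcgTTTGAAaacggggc

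The Ccnb2 window held 3 CCAAT boxes on its coding strand, beginning 87, 54 and 21 bases before the start, each 33 bases from the next. Its printed TTTGAA match lay 167 bases before the start, farther upstream than all 3 boxes. Another match lay just after the start, outside the stretch printed. In Cdk1 the boxes were in the ATTGG orientation, beginning 208, 80 and 48 bases before the start, the last pair 32 bases apart, with TTTGAA at 71 and 15 bases. In Ccnf the boxes began 147 and 107 bases before the start and TTTGAA 130 and 14 bases before it. Of 32851 RefSeq promoter windows of this length, 33.8% held at least 1 CCAAT or ATTGG, 16.0% held TTTGAA or TTCAAA, and 5.55% held both. The windows of Ccnb1 and Cdc25a held 2 boxes each and that of Cdc25b held 1, with no TTTGAA in any of the 3. TTTAAA, another spelling of a cell cycle homology region, was not counted, and the Ccnb1 window holds it. The lack of TTTGAA there does not show that such a region is missing. The promoter table had no entry used here for Ccna2, Cdc25c, Wee1 and Pkmyt1. A match is a description of letters and does not show that a factor binds.

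All levels below are log2 values per probe set, and a difference is the old mean minus the young mean on that scale. Levels of different probe sets are not compared with each other, since each probe set has its own brightness. Log2 4 stands in for background, because no detection calls were used here, and a probe set was kept for testing if it lay above that level on at least 3 arrays. This left 15 of the 16 probe sets, covering all 9 measured genes. Ccnb2 passed only through its old arrays.

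Ccnb2 encodes cyclin B2, the B-type cyclin found mainly at the Golgi. Its probe set, 1450920_at, read 2.92, 2.83 and 3.24 on the young arrays and 9.97, 9.96 and 9.85 on the old arrays. Every young array was under background and every old array was far above it, with no overlap. The mean was 3.00 ± 0.21 for young arrays and 9.93 ± 0.071 for old arrays (SD, n = 3), which put the old level at least 60.8-fold above log2 4. Because it stood near the bottom of the array scale in young cells, the size of the difference below log2 4 is not known. Ccnb2 had no second probe set against which to set this reading. The RefSeq table also lists a pseudogene, Ccnb2-ps, on chromosome 8, while Ccnb2 lies on chromosome 9, and whether the probe set reads it was not tested.

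The other cyclins of the set lay lower in old cells, by far smaller amounts. Ccna2, cyclin A2, which acts with Cdk2 in S phase and with Cdk1 at entry into mitosis, was read by a pair of probe sets. At 1417911_at it read 12.46, 12.35 and 12.45 in young and 11.97, 11.96 and 11.72 in old cells. At 1417910_at it read 13.63, 13.63 and 13.62 in young and 13.43, 13.42 and 13.27 in old cells. The ages did not overlap at either probe set, and the differences were -0.54 and -0.25. Ccnf is cyclin F, which pairs with no Cdk and instead picks substrates for an SCF ubiquitin ligase. At 1422513_at it read 10.46, 10.34 and 10.57 in young and 9.79, 9.63 and 9.37 in old cells, a difference of -0.86. At 1443807_x_at it read 8.32, 7.95 and 8.24 in young and 7.82, 7.43 and 7.27 in old cells, a difference of -0.66. All old arrays lay under all young arrays at both, with a gap of 0.55 at the first and 0.12 at the second.

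Cdk1 itself, read by 1448314_at, was 13.54, 13.55 and 13.55 on the young arrays and 13.17, 13.24 and 12.98 on the old arrays. The young arrays agreed to within 0.0093 and the old arrays spread over 0.26, so the old values were lower and less alike. The difference was -0.42, or 1.34-fold. The catalytic subunit and Ccna2 thus lay lower in the same old samples in which cyclin B2 was high.

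Among the phosphatases, Cdc25c, which acts on Cdk1 at the G2 to M transition, differed most. At 1456077_x_at it read 12.08, 12.00 and 12.04 in young and 11.13, 11.03 and 11.04 in old cells, and at 1422252_a_at it read 11.13, 10.91 and 10.99 in young and 10.09, 9.95 and 9.91 in old cells. The probe sets gave nearly the same difference, -0.97 and -1.03, 1.97-fold and 2.04-fold, and the ages were parted by 0.87 and 0.82. Cdc25b, which starts the activation of Cdk1 at the centrosome, read 12.97, 12.93 and 12.86 in young and 12.54, 12.52 and 12.42 in old cells, a difference of -0.42 without overlap. Cdc25a, which acts at entry into S phase as well as at mitosis, was read by 3 probe sets, and on each of them every old array lay under every young array.
At 1417132_at, its brightest, Cdc25a read 9.70, 9.50 and 9.64 in young and 9.47, 9.34 and 9.30 in old cells, so that the ages were parted by only 0.034. At 1417131_at it read 7.45, 7.52 and 7.22 in young and 7.18, 6.93 and 6.77 in old cells. At 1445995_at, its dimmest, it read 5.70, 6.09 and 5.55 in young and 5.17, 4.54 and 5.19 in old cells. The differences were -0.24 (SE 0.077), -0.44 (SE 0.15) and -0.81 (SE 0.27) in that order. The direction of the Cdc25a probe sets was shared, and whether their sizes differ was not tested.

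The kinases that oppose Cdc25 did not part the ages. Wee1, the nuclear kinase that phosphorylates Cdk1 on tyrosine, read 11.99, 12.02 and 11.87 in young and 12.09, 12.19 and 11.99 in old cells at 1416773_at. Its values at 1416774_at were 9.54, 9.31 and 9.53 in young and 9.59, 9.69 and 9.47 in old cells. The ages overlapped at both probe sets, with old means higher by 0.13 and 0.12. Pkmyt1, the membrane-bound kinase of the same family, hardly varied at all. At 1418481_at it had the identical value 7.98 on 4 of 6 arrays, with 8.02 on young replicate 3 and another 7.98 on old replicate 1. In all, 141 kept probe sets had values above log2 4 that were exactly equal on at least 4 arrays, and what repeats them was not tested. At 1438601_at, the probe set that did not pass the filter, Pkmyt1 was at 2.14, the lowest value of the data, on all 6 arrays.

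**Figure D1:**
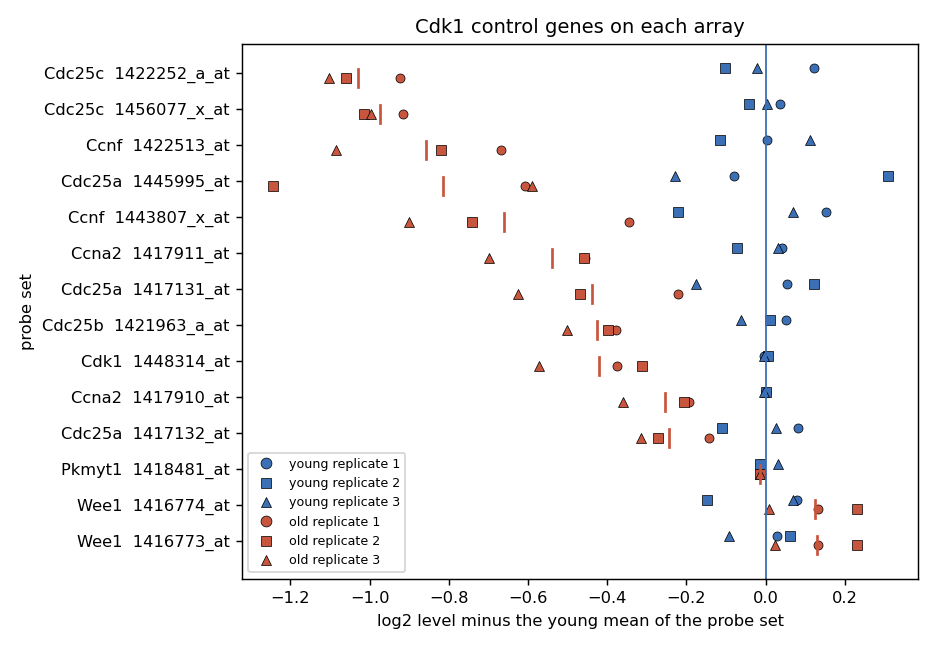
Log2 level on each array minus the young mean of the same probe set, for the 14 kept probe sets other than Ccnb2, with blue symbols for the 3 young and red symbols for the 3 old arrays and a red bar at the old mean. The old symbols lie left of all young symbols for 11 probe sets, from -1.03 for Cdc25c to -0.24 for Cdc25a, and overlap them for Pkmyt1 and both probe sets of Wee1.

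Ordered by the brightest probe set of each gene, the differences ran from Cdc25c at -0.97 (SE 0.038) through Ccnf at -0.86 (SE 0.14), Cdc25b at -0.42 (SE 0.051), Cdk1 at -0.42 (SE 0.079), Ccna2 at -0.25 (SE 0.054) and Cdc25a at -0.24 (SE 0.077) to Pkmyt1 at -0.01 and Wee1 at 0.13 (SE 0.076). Cdc25c and Ccnf, Cdc25b and Cdk1, and Ccna2 and Cdc25a differed from each other by less than their errors. The median over the 15 kept probe sets was -0.42, against 0.01 over all kept probe sets, with quartiles of -0.22 and 0.28. Every old array was under every young array for 11 of the 15, against a background of 25.9% of all kept probe sets, and above for Ccnb2 alone, against 29.4%. In the limma fit across all kept probe sets 9 fell under the threshold as lower and 1 as higher (adjusted p under 0.05), where 16.5% of all kept probe sets were lower and 20.1% higher. The genes were chosen with these differences known, so these calls are no test of them and nothing is read from the counts. On leaving out each array in turn, between 6 and 9 probe sets were called lower. The difference of each of these 15 probe sets kept its sign without any 1 array, apart from Pkmyt1, which ranged from -0.02 to 0.00.

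Ccnb2 was also set beside the genes next to it on chromosome 9. Of its 10 nearest protein-coding neighbours in the RefSeq order, 5 on each side, 8 had a kept probe set. Myo1e, a myosin of the cell cortex and the nearest neighbour on that side, rose by 1.24 to 8.24 ± 0.30 in old cells (log2, SD, n = 3), a change called by limma. Adam10, the protease that cleaves Notch and other surface proteins and lies in the fourth place on the other side, rose at 3 probe sets, by 0.26, 1.08 and 1.21. These were 4 of the neighbours' 17 kept probe sets, where 20.1% of all kept probe sets were called higher, and 3 of the 4 were of Adam10. The remaining 13 did not pass, among them that of Rnf111, the nearest neighbour on that side, with a difference of 0.05, and those of Sltm and Mindy2. Fam81a had a difference of 1.07 and did not pass.

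**Figure D2:**
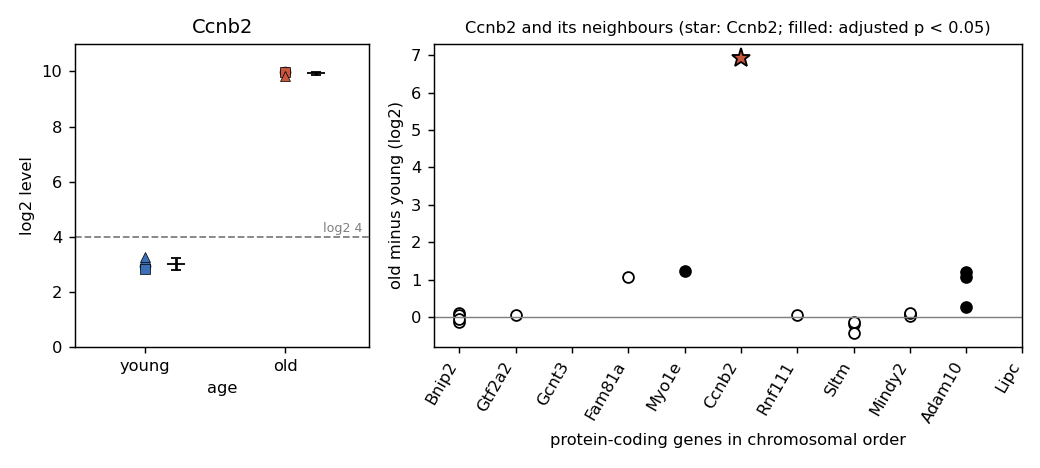
Left, log2 level of Ccnb2 on the 3 young and 3 old arrays (symbols), with mean and SD beside them and log2 4 as a dashed line. Right, old minus young difference (log2) of each kept probe set of Ccnb2 (star) and its neighbours in chromosomal order, filled where limma called it. Ccnb2 stands at 6.93, measured against young values under log2 4, and Myo1e at 1.24, while Gcnt3 and Lipc had no kept probe set.

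The other genes around Cdk1 were compared between the ages in limma, as 7 lists of 146 symbols that leave out the genes above. Of these symbols 144 had a probe set and 136 a kept probe set. Casc5 and Skp1a, which had none, are older symbols of Knl1 and Skp1, which are listed as well. A gene stands for its brightest kept probe set. Among all 10050 genes tested 18.5% were lower and 22.0% higher in old cells at an adjusted p under 0.05, with a median difference of 0.01. The lists were chosen with it known that many mitotic genes were lower in old cells, so their counts are no independent support for that direction. Wherever a list below had no gene that rose, limma also gave 0 higher genes at an unadjusted p under 0.05, and the means of each gene's kept probe sets gave 1, in the list of Cdk1 activators and PP2A-B55 subunits.

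Genes transcribed in G2 and mitosis lay lower nearly throughout. Of 25 other G2/M genes 20 fell and none rose, with a median difference of -0.54, and the remaining 5 had differences below 0 as well. Cenpa, the histone of the centromere, fell from 12.20, 12.21 and 12.24 in young to 11.59, 11.47 and 11.47 in old cells, by 0.71 (adjusted p = 0.000636). Cdkn3, a phosphatase that acts on Cdk2 and Cdk1, fell by 0.46 (adjusted p = 0.00263), and the chromokinesin Kif4 fell by 0.83 (adjusted p = 0.00367). Ccnb2, likewise a G2 gene, lay in the opposite direction. In the spindle assembly checkpoint, which holds cyclin B destruction back until chromosomes are attached, 7 of 10 genes fell and none rose (median -0.41). Mad2l1 fell by 0.43 (adjusted p = 0.0108), Bub1b by 0.58 (adjusted p = 0.0126) and Bub1 by 0.55 (adjusted p = 0.015), the last call being lost without young replicate 3. The count of 7 was 3 without young replicate 3, and 4 without young replicate 1 or old replicate 2.

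A list of 21 genes held 13 that help to activate Cdk1, among them Polo, Aurora and Greatwall kinases, and 8 subunits of PP2A-B55, the phosphatase that reverses the work of Cdk1. Of the 21 genes 10 fell and none rose by its brightest probe set (median -0.25), 6 of the 13 and 4 of the 8 subunits. Among the genes not called, another probe set was higher for Cdk7 (0.44, adjusted p = 0.00306) and Arpp19 (0.15, adjusted p = 0.0323). Another was lower for Cks1b (-0.28, adjusted p = 0.0202) and Cks2 (-0.24, adjusted p = 0.0393). Ppp2r2b, a B55 regulatory subunit abundant in brain, read 9.20, 9.00 and 9.04 in young cells and 2.82, 2.67 and 2.14 in old cells, where every array was under log2 4. It was at least 33.8-fold lower (adjusted p = 2.77e-05). Ppp2r2c, another B55 subunit, read 12.15, 12.07 and 12.06 in young and 8.16, 9.44 and 9.13 in old cells, and fell by 3.18 (adjusted p = 0.00173). The other kept probe set of Ppp2r2c was called lower as well, with a smaller difference (adjusted p = 0.00068). By their brightest probe sets Ppp2r2a fell by 0.25 (adjusted p = 0.00838) and the catalytic subunit Ppp2ca by 0.30 (adjusted p = 0.00654). Their other probe sets were mixed. For Ppp2r2a they gave -0.30 (adjusted p = 0.0133) and -0.06 (adjusted p = 0.576). For Ppp2ca they gave -0.91 (adjusted p = 0.000376) and -0.13 (adjusted p = 0.125). Ppp2r2d, with a difference of -0.11, did not pass (adjusted p = 0.119). Among the kinases that feed Cdk1 activation, Plk1 fell by 0.65 (adjusted p = 0.00834) and Aurka by 0.68 (adjusted p = 0.0102). Both were picked for their role after their values were seen, as were Ppp2r2a and Ppp2r2d.

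Of 24 genes of the ubiquitin ligases that destroy these proteins and of their regulators, 6 fell and none rose (median -0.09). Among all genes tested 18.5% were lower and 22.0% higher. The 6 include Fbxo5, an inhibitor of the anaphase-promoting complex picked for that role, which fell by 0.55 (adjusted p = 0.0115). Those that fell also included the activators of the complex, which direct it to cyclins A and B. Cdc20 fell from 12.75, 12.82 and 12.84 to 12.22, 12.22 and 11.95, by 0.67 (adjusted p = 0.00384), and all 3 of its probe sets passed. Fzr1, also called Cdh1, which takes over late in mitosis and in G1, fell by 0.90 (adjusted p = 0.00381), and the ubiquitin-conjugating enzyme Ube2s by 0.47 (adjusted p = 0.00876). A list of 19 genes around the restraint of Cdc25 held checkpoint kinases, clamp and adaptor proteins that act with them, and 14-3-3 proteins. Of these 19 genes 4 fell and none rose (median -0.10), a share of falls near the 18.5% of all genes tested. Those that fell included the clamp subunit Hus1 (-0.43, adjusted p = 0.0276), the kinase Mapk14 (-0.24, adjusted p = 0.0197) and the 14-3-3 protein Ywhah (-0.21, adjusted p = 0.0149). Each of these calls was lost on leaving out some single array. The count of 4 was 1 without young replicate 1, young replicate 3 or old replicate 2, and 2 without old replicate 1 or 3.

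The transcription factors of G2/M promoters went both ways, with 2 of 21 lower and 3 higher (median -0.00). Among all genes tested 18.5% were lower and 22.0% higher. Nfyb, a subunit of the CCAAT box factor NF-Y, fell from 13.28, 13.16 and 13.24 to 12.80, 12.82 and 12.79, by 0.43 (adjusted p = 0.00246). Whether NF-Y binds the boxes printed above was not tested. Its partners had differences of -0.11 (Nfya) and 0.03 (Nfyc) and did not pass. The repressor E2f7 fell by 1.00 (adjusted p = 0.0028), while E2f1 rose by 0.83 (adjusted p = 0.00842), the retinoblastoma gene Rb1 by 0.45 (adjusted p = 0.0077) and Tfdp2 by 0.23 (adjusted p = 0.0148), the last call being lost without old replicate 1 or 3. Foxm1, a driver of Ccnb2 and Cdc25b transcription picked for that role, had a difference of -0.41 at its brightest probe set (adjusted p = 0.0801), and its other 2 probe sets were called lower. Of 17 other cyclins 3 fell and 2 rose by the brightest probe set (median -0.01), a share of falls near that of all genes tested. The fallers were Ccng2 (-0.82, adjusted p = 0.0023), Ccnd3 (-0.64, adjusted p = 0.00396) and Ccnj (-0.38, adjusted p = 0.00461). The cyclins that rose were the p53 target Ccng1 (0.52, adjusted p = 0.00223) and the S phase cyclin Ccne2 (0.56, adjusted p = 0.0194), the latter call being lost without young replicate 2 or 3 or old replicate 1 or 2. The 2 other kept probe sets of Ccng1 rose by more, by 1.59 (adjusted p = 0.000462) and 1.49 (adjusted p = 0.000395). Ccny and Ccne1 were not called by their brightest probe sets, but their others rose. These gave 0.31, 0.23 and 0.18 for Ccny (adjusted p = 0.0214, 0.0488 and 0.0423) and 0.30 for Ccne1 (adjusted p = 0.036). No cyclin left uncalled had another probe set that was called lower.

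**Figure D3:**
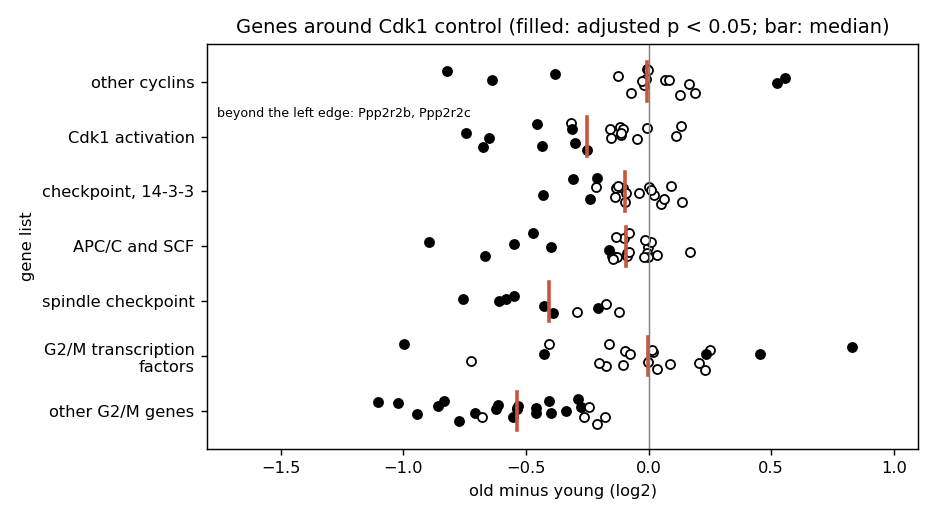
Old minus young difference (log2) of each gene in the 7 lists, filled where limma called it at an adjusted p under 0.05, with the list median as a red bar. The other G2/M genes all lie below 0, around a median of -0.54, while the other cyclins and the transcription factors lie on both sides, and Ppp2r2b (-6.54) and Ppp2r2c (-3.18) lie beyond the left edge.

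The old arrays also differed among themselves in these genes, a feature that does not use the comparison of the ages. Old replicate 3 was the lowest of the old arrays for 24 of 25 other G2/M genes, while it was the lowest for 33.9% of all kept probe sets. For Cenpe, a kinesin of the kinetochore, the old arrays read 10.16, 9.80 and 9.37, and for the proliferation marker Mki67 they read 12.94, 12.81 and 12.67. Over the 25 genes, the median deviation from the old mean was 0.10 on old replicate 1, 0.03 on old replicate 2 and -0.14 on old replicate 3, and over all kept probe sets it was 0.00 on each. The Cdk1 control genes showed the same order. Of their 14 kept probe sets with 3 distinct old values, old replicate 3 was the lowest at 12 and old replicate 1 the highest at 10. Old replicate 3 was the lowest for Ccnb2 and for both probe sets of Wee1 as well as for most of those lower in old cells. Without old replicate 3 the median difference of the 25 genes was -0.47, and 16 of them were called lower, a count also reached without young replicate 3.

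**Figure D4:**
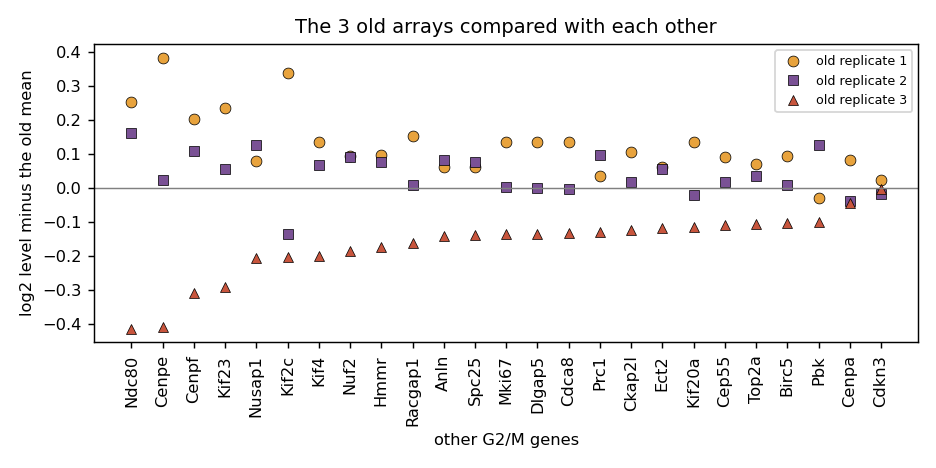
Log2 level of each of the 25 other G2/M genes on the 3 old arrays minus the mean of the old arrays, ordered by old replicate 3. The triangles of old replicate 3 are the lowest symbol for 24 of 25 genes, with the exception of Cdkn3.

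The label of neural stem cells was checked against markers. Of 9 measured stem cell markers 8 lay above background, among them Sox2, Nes and Vim, and Prom1 did not. Of the 9, Nes (-0.46) and Sox9 (-0.35) were called lower and Msi1 (0.52) higher, and the summed level was 16.69 to 16.72 in young and 16.62 to 16.64 in old arrays (log2 of the sum of linear levels). All 7 microglial markers and 7 of 8 mural and fibroblast markers were under background on every array, as were 5 of 6 endothelial and 4 of 5 oligodendrocyte markers. The marker above background in each of these last 3 lists, Acta2, Flt1 and Cldn11, was called lower in old cells. Those of neuroblasts moved with age as well. Their summed level was 14.47 to 14.48 in young and 13.89 to 13.96 in old arrays, with 4 of 6 called lower and Stmn2 under background. That sum mostly follows Sox11, with a mean of 14.25 in young and 13.92 in old arrays. The other called means were 11.11 and 7.40 for Dlx2, 8.05 and 2.40 for Neurod1, and 9.50 and 3.83 for Tubb3. The astrocyte markers moved the other way, from 13.33 to 13.41 up to 14.25 to 14.36, with 4 of 6 called higher, 1 lower and none under background. Of 6 oligodendrocyte progenitor markers 2 were called lower, with Sox10 and Gpr17 under background. Of 6 neuronal markers 2 were lower and 3 under background. The summed neuronal level was nonetheless 13.72 to 13.79 in young and 13.83 to 13.88 in old arrays. It mostly follows Map2, with means of 13.71 and 13.84, which was not called. Of 5 ependymal markers 1 was higher, 1 lower and 3 under background. Among all genes tested 18.5% were called lower and 22.0% higher. The part of these cell types in the differences above was not tested. The mean of the 18 hybridisation control probe sets was lower on every old array than on any young array. It was 12.28 ± 0.098 in old against 13.24 ± 0.28 in young (log2, SD, n = 3, two-sided exact permutation p = 0.1, which is the least possible p with 3 arrays an age). The 3′ minus 5′ value of a control is a sign of RNA quality. For actin it was 0.62 ± 0.043 in young and 0.69 ± 0.036 in old arrays (two-sided exact permutation p = 0.1). For Gapdh it was 0.34 ± 0.016 in young and 0.38 ± 0.052 in old arrays (two-sided exact permutation p = 0.3). The transferrin receptor control went the other way. Its value was 1.22 ± 0.34 in young and 1.04 ± 0.21 in old arrays (two-sided exact permutation p = 0.5). The part of all these controls in the results was not tested.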

How the data were processed

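Neural stem cell RNA was measured in 3 young and 3 old samples, 1 array each, a number that limits the precision. Per the labels' protocols, RNA was extracted on NucleoSpin XS columns and labelled with a NuGEN Encore Biotin kit. The values the authors deposited are on a log2 scale, as their range shows. The submitters' processing notes name GCRMA, a method that subtracts background modelled on probe sequence, makes arrays alike and combines each probe set's probes. Its version and the genome build were not given in the sources used here. Symbols came from the platform's annotation, and 932 probe sets with several and 9160 with none were not named.

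After 64 control probe sets were left out, 19858 of the remaining probe sets lay above log2 4 on at least 3 arrays. Old and young were compared by limma's two-sided moderated test (limma 3.58.1, R 4.3.3), with p-values adjusted over the kept probe sets by the Benjamini-Hochberg method and called under 0.05. An SE of a member's difference comes from the SDs of its arrays. There were 4 residual and 1.47 prior degrees of freedom. The procedure was tested on simulated data. Promoters were searched and figures drawn in Python 3.11.15 with matplotlib 3.10.9.

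The members and lists were chosen with earlier results of these data known. The text names all members, up to 3 genes per list and direction with the smallest p among those called, the 5 genes most like Ccnb2, its 10 neighbours and the cell type markers, plus genes said to be picked for their role or chosen after their values were seen. Cenpe and Mki67 were chosen so too, as were Cdk7, Arpp19, Cks1b, Cks2, Ccny and Ccne1, which are named for their other probe sets. The search for genes like Ccnb1 was not run, since Ccnb1 was not analysed here. Alternatives were other filters, quantile normalization again, centring on array medians, the replicate block, eBayes with trend and robust options, array weights, gene means and leaving out each array.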

Additional observations from a re-analysis of the deposited data

How the results depend on the processing

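The replicate numbers were not shown to pair the samples. Deviations from the group means correlated across probe sets at -0.16, -0.11 and 0.16 between same-numbered arrays. Between arrays of different numbers they ranged from -0.22 to 0.25. With 3 arrays an age, whose deviations sum to 0, these values can neither show nor exclude a pairing. With the replicate block 2456 probe sets were called lower and 3144 higher, against 3273 and 3995, with 8 of the Cdk1 control probe sets lower and 1 higher, 45 and 4 genes of the lists, and 2 checkpoint genes lower. Against a background of log2 5 the old level of Ccnb2 was at least 30.4-fold. With log2 3 no such bound could be given, since a young array lay above it. Without the filter, on 45037 probe sets, 1 cyclin was called higher (against 2), 2 checkpoint genes lower (against 4) and 1 spindle checkpoint gene lower (against 7), and the Cdk1 control probe sets called lower numbered 6. With trend and robust options 8 genes of the lists were higher (against 5), of them 5 transcription factors. With gene means 8 were higher, of them 4 cyclins and 1 gene of the list of Cdk1 activators and PP2A-B55 subunits, and 2 checkpoint genes were lower.

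Without 1 array, calls over all kept probe sets ranged from 2177 to 3301 lower and from 2768 to 3961 higher. The lowest count of lower calls came without old replicate 2, and lower calls made up 38.7% of all without young replicate 1, against 45.0%. Genes of the lists ranged from 38 to 49 lower and from 3 to 6 higher, the latter being 3 without old replicate 1. Within lists the lower calls ranged from 1 to 3 for the checkpoint and 14-3-3 list and from 3 to 6 for the spindle checkpoint. They ranged from 16 to 18 for the other G2/M genes, and cyclins called higher from 1 to 2. At the scale of the array, readings under log2 4 limit Ccnb2 in young cells, Ppp2r2b in old cells and the dim probe set of Pkmyt1 throughout. Among the 15 Cdk1 control probe sets no called difference changed sign under the alternatives run, while for the lists and all probe sets only counts were compared. The cause was not tested for any shift.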

Other observations

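The genes whose pattern over the 6 arrays was most like that of Ccnb2, by the smallest root mean square difference of log2 profiles with their own means subtracted, were Ank3 at 0.20, the ankyrin of the axon initial segment, Tbx18 at 0.27, a T-box transcription factor, Sytl4 at 0.32, which acts in vesicle release, Serpinb11 at 0.33 and Dmp1 at 0.34, a matrix protein of bone and dentin. Each was under log2 4 in young cells, with means from 2.14 to 2.24, and had an old mean between 8.71 and 9.41, so that the likeness lies in leaving the bottom of the scale on all 3 old arrays.

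The kept probe sets of each Cdk1 control gene had the same direction, and their sizes were close for Cdc25c and Wee1 and further apart for Cdc25a, Ccna2 and Ccnf. Of the Cdk1 control genes with several kept probe sets all lower in old cells, the dimmest differed more than the brightest in 3 of 4, Ccnf being the exception. Among all genes whose dimmest and brightest kept probe sets were both lower, the dimmest differed more in 1145 of 1744, or 65.7%.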
